A study of Homo sapiens with 32 samples.

Results

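The let-7 family was followed as the 9 rows let-7a, let-7b, let-7c, let-7d, let-7e, let-7f, let-7g, let-7i and mir-98 of a table of 1513 miRNA rows. The rows were taken by name. Each row counts reads of a precursor, both arms together, and hairpins that exist in several genomic copies share 1 row. The libraries are of small RNA from 8 clones of 293T, an easily transfected human embryonic kidney line. The study compared clones with an unmodified DGCR8 locus with clones edited in DGCR8, each with and without knockdown of ERH.

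Clones 52, 55, 57 and 67 were wild-type. Clones 30, 34, 42 and 43 had the genotype DGCR8 delta103-126Q, a deletion made by prime editing of the codons for the reported contact site of the small nuclear protein ERH. Each clone received 4 vectors in separate transfections, the non-targeting control shRNAs 1 and 2 and the ERH shRNAs 1 and 2. Transfection was transient, cells were selected with puromycin, and cells positive for the fluorescent marker were sorted on day 5. All 32 libraries therefore share the line, the transfection and the sort, and each genotype is represented by 4 clones of it. For the deletion, p-values measure the spread of levels between clones of 1 line. For comparisons of shRNAs and for the interaction, which hold the clone as a block, they measure the spread of within-clone changes. The counts of the 2 libraries of an arm were summed, which gave 16 sums of 8 clones. The libraries hold small RNA, so neither the ERH transcript nor the edit itself could serve as a check of the labels.

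The let-7 miRNAs are among the most conserved animal miRNAs. They repress growth-promoting genes such as LIN28, HMGA2 and RAS family members, and they accumulate as cells differentiate. Their primary transcripts are cut in the nucleus by the Microprocessor, the nuclease DROSHA with its RNA-binding partner DGCR8, and the freed hairpins are cut again by DICER1 in the cytoplasm. Some let-7 hairpins lie beside other miRNA hairpins in 1 primary transcript, and others are the single hairpin of theirs. ERH binds DGCR8, and it is known for its role in the processing of poor hairpins that lie next to a good one, as for mir-451a beside mir-144.

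The mature 5′ strands of the 9 members are shown because they explain both the family and a limit of its counts. All 9 are 22 bases long and share the seed, bases 2 to 8, printed in capitals (RefSeq, GRCh38.p14).
let-7a: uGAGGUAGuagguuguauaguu
let-7b: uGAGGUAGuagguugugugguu
let-7c: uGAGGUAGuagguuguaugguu
let-7d: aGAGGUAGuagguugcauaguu
let-7e: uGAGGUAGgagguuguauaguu
let-7f: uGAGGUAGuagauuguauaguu
let-7g: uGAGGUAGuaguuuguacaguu
let-7i: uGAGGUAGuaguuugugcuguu
mir-98: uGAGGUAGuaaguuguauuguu

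Among the 36 pairs of members, 4 pairs differ by a single base and no pair by more than 6. With positions counted from 1 at the 5′ end, let-7c differs from let-7a by A19G, let-7e by U9G and let-7f by G12A. Next to let-7a, let-7b carries A17G and A19G, let-7d U1A and U16C, let-7g G12U and U18C, and mir-98 G11A and A19U. The most divergent from let-7a is let-7i, with G12U, A17G, U18C and A19U. How the counting treated reads that fit several members is not given in the sources used here, so the split of reads among members is uncertain. This bears most on the scarce rows. A median of 0.548% as many counts fell on let-7d as on let-7a, and of 0.816% as many on mir-98 as on let-7f.

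The family comes from 12 loci, listed here with GRCh38 coordinates and the GENCODE 29 gene around each hairpin. The build behind the counts is not given in the sources used here. A row was called clustered when each of its hairpins had another annotated and detected hairpin within 10000 bases on the same strand, which held for 10 loci and 7 rows. On chromosome 9, MIRLET7A1 (chr9:94175957-94176036), MIRLET7F1 (chr9:94176347-94176433) and MIRLET7D (chr9:94178834-94178920) lie in an intron of the lincRNA AL158152.2. MIRLET7A2 (chr11:122146522-122146593) lies in an intron of MIR100HG, 5635 bases from MIR100. MIRLET7A3 (chr22:46112749-46112822) and MIRLET7B (chr22:46113686-46113768) overlap an exon of MIRLET7BHG and are 863 bases apart. MIRLET7C (chr21:16539828-16539911) lies in an intron of MIR99AHG, 658 bases from MIR99A. MIRLET7E (chr19:51692786-51692864) lies in an intron of SPACA6, 104 bases from MIR99B, with MIR125A beyond it. MIRLET7F2 (chrX:53557192-53557274) and MIR98 (chrX:53556223-53556341) lie 850 bases apart in an intron of HUWE1. The 2 solitary rows are let-7g, from MIRLET7G (chr3:52268278-52268361) in an intron of WDR82, and let-7i, from MIRLET7I (chr12:62603686-62603769) in an intron of the lincRNA AC048341.1.

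Hairpins of the family also differ in the stretch between their 2 mature strands. The hairpins of the 3 rows that were lower in every clone under ERH knockdown are printed with that of let-7e, a row that was not, a choice made after the values were seen. The 5′ strand is in capitals (RefSeq, GRCh38.p14, each on the strand of its transcript).
MIR98: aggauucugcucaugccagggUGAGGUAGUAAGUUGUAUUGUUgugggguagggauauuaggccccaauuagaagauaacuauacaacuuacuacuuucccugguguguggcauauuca
MIRLET7G: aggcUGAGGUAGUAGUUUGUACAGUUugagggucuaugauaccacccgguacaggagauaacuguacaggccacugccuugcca
MIRLET7I: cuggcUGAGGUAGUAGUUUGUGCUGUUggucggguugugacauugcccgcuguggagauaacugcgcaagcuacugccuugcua
MIRLET7E: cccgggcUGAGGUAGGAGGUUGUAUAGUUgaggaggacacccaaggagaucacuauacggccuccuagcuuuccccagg

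The strands are 36 bases apart in MIR98, 35 in MIRLET7G and 34 in MIRLET7I. MIRLET7F1 also has 34, MIRLET7B and MIRLET7D have 32, MIRLET7A1 has 29 and MIRLET7A3 has 26. The shortest stretch, 23 bases, is shared by MIRLET7A2, MIRLET7C and MIRLET7E. This is a description of 11 of the 12 loci, since the table of mature strands gave no 3′ strand for MIRLET7F2, and it was not tested against the changes.

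Libraries held 1318923 to 6222790 miRNA counts. The sparsest members were counted 61 to 285 times (mir-98) and 73 to 334 times (let-7d) per library, and the other 7 at least 290 times. Levels are counts scaled to a common library size (CPM) after TMM scaling, an adjustment that treats most rows as unchanged. The control shRNA 2 library of deletion clone 30 stood apart. It had the highest value of all 32 libraries for let-7i (2553 CPM, against at most 1387 elsewhere), let-7b (745 against at most 588) and let-7d (127 against at most 114). It was also highest for the blood cell miRNAs mir-142 (3269.9 against 82.9 to 1173 CPM) and mir-223 (410 against 5.24 to 121 CPM). The red blood cell and serum markers mir-486 (42.5 CPM, with 24 libraries above it) and mir-451a (9.48 CPM, with 11 above) were not highest there. All 8 listed markers of other cells were in the table, and their summed level ran from 387 to 806 CPM in wild-type control libraries, 259 to 903 in wild-type ERH libraries, 368 to 3924 in deletion control libraries and 496 to 1702 in deletion ERH libraries. The muscle marker mir-206 had a count in 9 of 32 libraries and at most 3 counts. The part of the marker RNAs in the let-7 values was not tested. Calls that change without the control shRNA 2 library of clone 30 are given with and without it.

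The family's share of miRNA counts was 2.59% ± 0.47 (SD, n = 4) in wild-type clones with control shRNAs and 2.67% ± 0.57 (SD, n = 4) with ERH shRNAs. In deletion clones it was 2.90% ± 0.29 (SD, n = 4) with control shRNAs and 3.15% ± 0.37 (SD, n = 4) with ERH shRNAs. Within clones it was higher with ERH shRNAs in 7 of 8, by 0.00474 percentage points in clone 52 up to 0.624 in clone 34. In clone 57 it went from 1.98% to 1.84%. The mean change was 0.165 ± 0.229 percentage points (SD, n = 8). A share of total counts has the total miRNA scaling, and its direction is opposite to that of the members on the TMM scale given next.

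Within the family, let-7a and let-7f together made up a median of 80.0% of the counts over the 16 sums, and between 71.9% and 82.8% in single sums. In wild-type clones with control shRNAs, let-7a stood at 17153 ± 4186 CPM (SD, n = 4) and let-7f at 8753 ± 2609. A middle tier held let-7e at 2486 ± 73.9 CPM and let-7c at 2041 ± 404, followed by the solitary let-7g at 978 ± 77.3 and let-7i at 960 ± 114. let-7b stood at 362 ± 157 CPM, mir-98 at 92.0 ± 23.0 and let-7d at 87.4 ± 15.9. Rows next to each other in this order of level, let-7g and let-7i, and likewise mir-98 and let-7d, did not differ beyond their spread. let-7e varied least between wild-type control clones, with an SD of 2.97% of its mean, and let-7b most, with 43.3%. Ligation differs between small RNA sequences, so the order of rows is an order of counts.

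**Figure D1:**
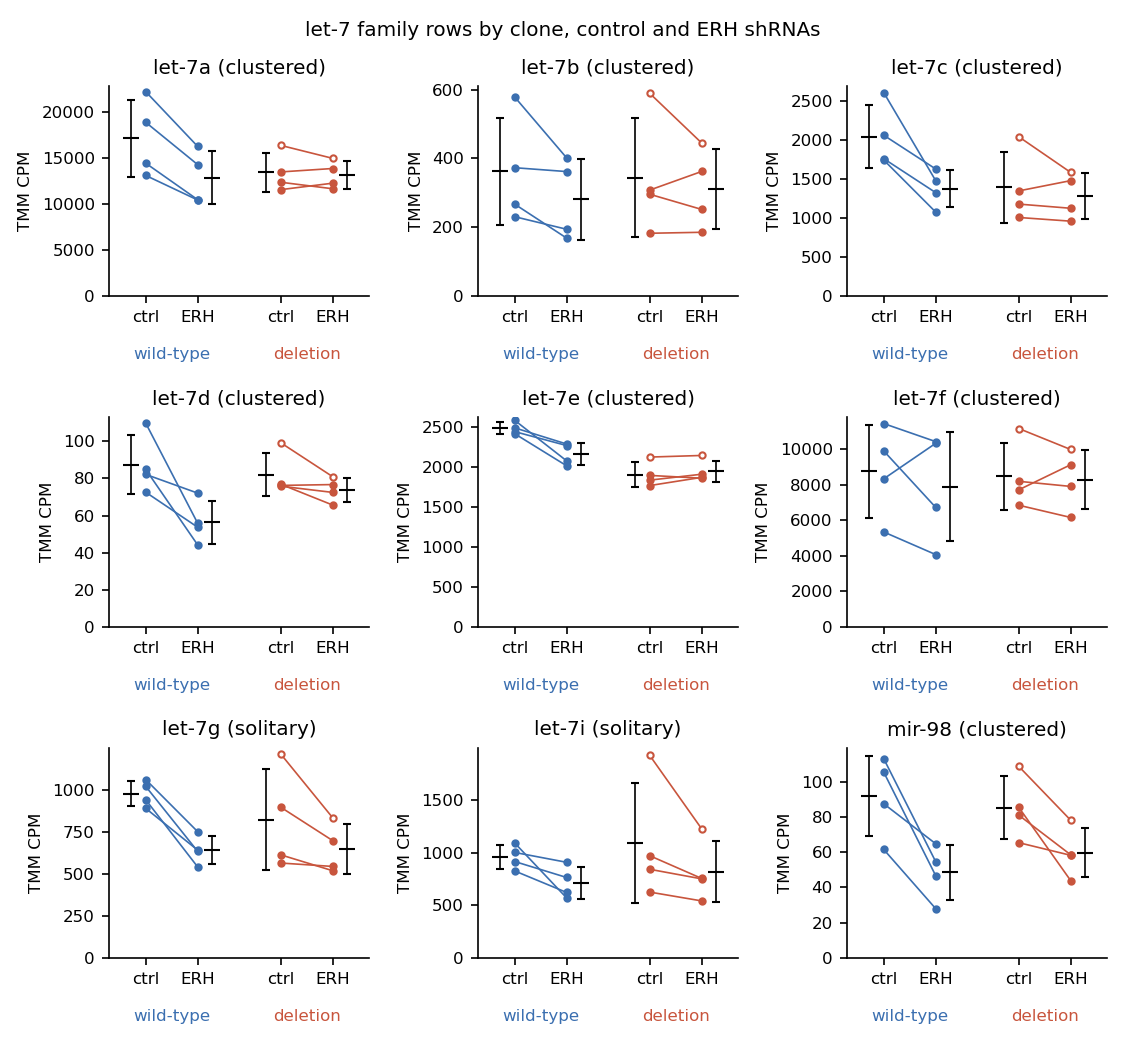
Levels of the 9 let-7 rows in TMM-scaled CPM (vertical axes, from 0), with 1 point per clone and arm and a line joining the control (ctrl) and ERH shRNA sums of a clone. Wild-type clones are blue, deletion clones red, clone 30 is the open circle, and black marks are the mean ± SD of 4 clones. On this scale let-7g, let-7i and mir-98 fall along all 8 lines. With spike-in scaling the fitted changes of let-7g and let-7i are above 0.

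ERH knockdown was read within clones, each clone giving its own control. On the TMM scale 5 of the 9 members were lower and none higher, let-7c, let-7d, let-7g, let-7i and mir-98 (edgeR quasi-likelihood test, Benjamini-Hochberg adjusted p under 0.05 over 667 rows). Among all rows tested, 36.6% were called, 16.5% lower and 20.1% higher. The median log2 fold change was -0.33 over the members and 0.06 over all rows. With spike-in scaling the fitted change was above 0 for 8 of the 9 members, mir-98 being the exception, and none was called. Without the control shRNA 2 library of clone 30 the count of 5 became 2, let-7g and mir-98.

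The largest fall was that of mir-98, the partner of let-7f in the HUWE1 intron. In wild-type clones 52, 55, 57 and 67 it stood at 106, 87.6, 61.6 and 113 CPM with control shRNAs and at 46.7, 64.8, 27.9 and 54.7 CPM with ERH shRNAs. In deletion clones 30, 34, 42 and 43 it stood at 109, 65.4, 81.1 and 85.6 CPM with control shRNAs and at 78.2, 58.2, 58.6 and 43.9 CPM with ERH shRNAs. It was lower in each of the 8 clones, least in clone 34. The arms overlapped between clones of either genotype, with clone 57 the lowest wild-type clone in both arms. edgeR gave a log2 fold change of -0.73 with an SE of 0.15 and an adjusted p of 0.00089. It was -0.46 with total miRNA scaling, which kept the call, and -0.27 with spike-in scaling, which did not. Its call held in 17 of 18 alternatives and in each of the 8 fits that left out a clone.

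The solitary let-7g showed the next largest fall. In wild-type clones 52, 55, 57 and 67 it stood at 941, 889.7, 1021 and 1061 CPM with control shRNAs and at 541, 641, 634 and 751 CPM with ERH shRNAs. In deletion clones 30, 34, 42 and 43 it stood at 1214, 564, 613 and 897 CPM with control shRNAs and at 834, 544, 518 and 698 CPM with ERH shRNAs. The 2 arms did not overlap in wild-type clones, a pattern whose share among all rows was not computed. In deletion clones the spread between clones was wider than the change, and clone 34 changed least. Over all clones edgeR gave a log2 fold change of -0.46 with an SE of 0.11 and an adjusted p of 0.00322. It was -0.18 with total miRNA scaling and 0.01 with spike-in scaling, neither of them called, and without the clone block the call was lost too.

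The other solitary row, let-7i, fell in every clone by a smaller and more uneven amount. In wild-type clones 52, 55, 57 and 67 it stood at 827, 917, 1094 and 1004 CPM with control shRNAs and at 622, 765, 569 and 909.5 CPM with ERH shRNAs. Deletion clones 30, 34, 42 and 43 had 1929, 972, 625 and 843 CPM with control shRNAs and at 1229, 755.5, 541 and 751 CPM with ERH shRNAs. Clone 57 fell most and clone 67 least, and clone 30 was the highest of its genotype in both arms. The arms overlapped between clones of either genotype. edgeR gave a log2 fold change of -0.39 with an SE of 0.11 and an adjusted p of 0.0109. Without the control shRNA 2 library of clone 30 it was -0.30 with an adjusted p of 0.0546 by edgeR, and with spike-in scaling it was 0.07.

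Of the clustered rows, let-7c, the neighbour of mir-99a, fell in 7 of 8 clones. In wild-type clones 52, 55, 57 and 67 it stood at 1758, 2058, 2606 and 1741 CPM with control shRNAs and at 1322, 1625, 1477 and 1073 CPM with ERH shRNAs. Deletion clones 30, 34, 42 and 43 had 2039, 1344, 1003 and 1175 CPM with control shRNAs and at 1581, 1475, 956 and 1121 CPM with ERH shRNAs. The 2 arms did not overlap in wild-type clones, again without a share of all rows to set beside it. In deletion clones the arms overlapped, and clone 34 was higher with ERH shRNAs. edgeR gave a log2 fold change of -0.33 with an SE of 0.12 and an adjusted p of 0.0298, a call that was lost when any of clones 30, 52, 55 or 57 was left out.

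The scarce row let-7d, from the chromosome 9 cluster, also fell in 7 of 8 clones. In wild-type clones 52, 55, 57 and 67 it stood at 82.2, 72.6, 84.9 and 109.9 CPM with control shRNAs and at 72.1, 53.7, 44.2 and 55.9 CPM with ERH shRNAs. Deletion clones 30, 34, 42 and 43 had 99.3, 75.8, 76.9 and 76.2 CPM with control shRNAs and at 81.0, 72.5, 65.6 and 76.7 CPM with ERH shRNAs. The arms did not overlap in wild-type clones, although clone 52 with ERH shRNAs came within 1 CPM of clone 55 with control shRNAs. The share of all rows without such overlap was not computed. In deletion clones the arms overlapped, and clone 43 was not lower. The edgeR fit gave -0.39 with an SE of 0.15 and an adjusted p of 0.0457, a call that was lost when any of clones 30, 42, 52, 55, 57 or 67 was left out.

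The other 4 members, all clustered, did not pass. let-7a, the most abundant row, ranged from 13090 to 22216 CPM in wild-type control sums and from 10419 to 16255 in wild-type ERH sums, with a log2 fold change over all clones of -0.22 ± 0.10 (SE, adjusted p = 0.0804 by edgeR). let-7b, beside let-7a on chromosome 22, had -0.23 ± 0.12 (SE, adjusted p = 0.145 by edgeR). let-7f had -0.11 ± 0.10 (SE, adjusted p = 0.417 by edgeR) and let-7e -0.09 ± 0.10 (SE, adjusted p = 0.519 by edgeR). Their values were lower in 5 of 8 clones for let-7e and in 6 of 8 for the others. The rows lower in every clone were let-7g, let-7i and mir-98, 3 of the 9 members, against 9.6% of all rows tested. No member was higher in every clone, against 11.5% of all rows.

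**Figure D2:**
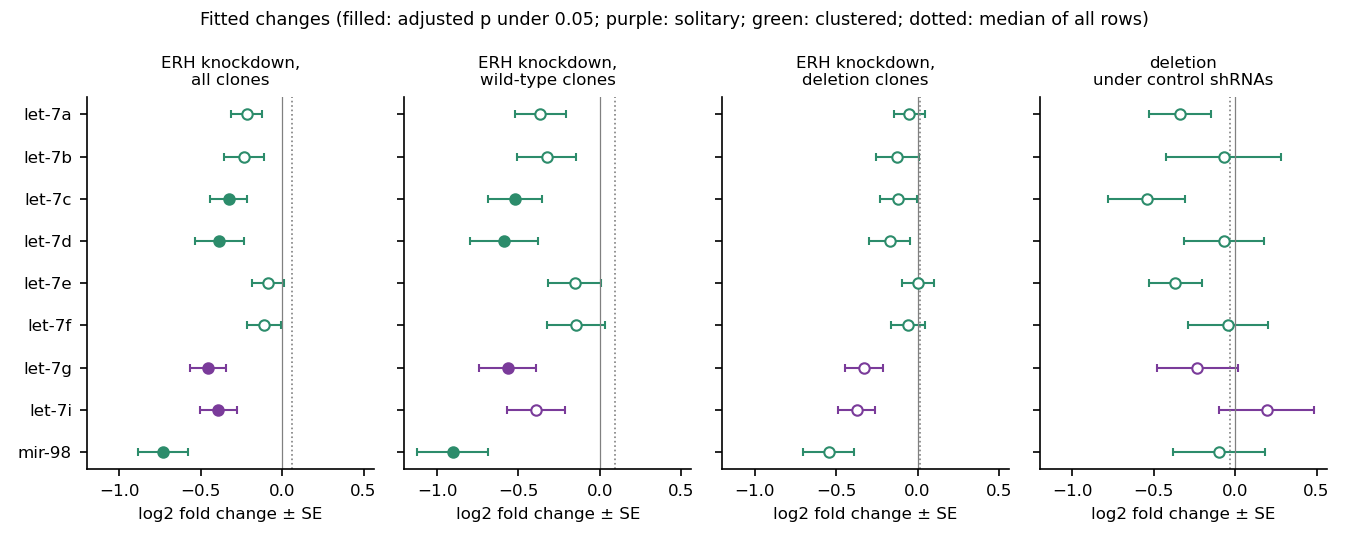
Fitted log2 fold changes of the 9 let-7 rows on the TMM scale (horizontal axes) with their standard errors, in 4 comparisons. Filled points have an adjusted p under 0.05, purple marks the solitary and green the clustered rows, and the dotted line is the median of all rows tested. Filled points are 5 for the knockdown in all clones, 4 in wild-type clones and none in the other panels. With spike-in scaling no member is called in these 4 comparisons.

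In wild-type clones alone, 4 members were lower under ERH shRNAs, let-7c (-0.52 ± 0.17), let-7d (-0.59 ± 0.21), let-7g (-0.57 ± 0.18) and mir-98 (-0.90 ± 0.22, log2 fold change ± SE, n = 4). Their adjusted p-values by edgeR were 0.0238, 0.0395, 0.0198 and 0.00448. Of all 613 rows tested, 31.3% were called, 10.4% lower and 20.9% higher. let-7i had the same size of change as in the whole set, -0.39, but an adjusted p of 0.103 by edgeR. None of these 4 was called with total miRNA scaling, with spike-in scaling or without the clone block. On the TMM scale with the block, the call of mir-98 held when any 1 of the 4 clones was left out. Those of let-7c and let-7d were lost without clone 55, 57 or 67, and that of let-7g without clone 52, 55 or 57.

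In deletion clones alone no member was called by edgeR, 3 had an unadjusted p under 0.05, and DESeq2 called 3. Of all 633 rows tested, 10.3% were called by edgeR, 4.27% higher and 6.0% lower, 188 had an unadjusted p under 0.05, and DESeq2 called 94. The 3 were the rows that fell in every clone, mir-98 at -0.55 ± 0.16 (adjusted p = 0.0512), let-7i at -0.37 ± 0.12 (0.063) and let-7g at -0.33 ± 0.12 (0.0978, all by edgeR, n = 4). The remaining 6 members lay between -0.17 (let-7d) and 0.00 (let-7e). Without clone 34 the edgeR count became 3, the rows mir-98, let-7g and let-7i. Without the control shRNA 2 library of clone 30 it was 1, mir-98, and let-7i was then -0.23 (adjusted p = 0.253 by edgeR).

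The difference between the genotypes was tested as an interaction. The knockdown change was less negative in deletion than in wild-type clones for all 9 members on the TMM scale, but for 7 with total miRNA and 3 with spike-in scaling. With TMM the median difference was 0.31 over the members and 0.00 over all rows. No member passed (edgeR), and 0.0% of the 667 rows did, while 127 rows had an unadjusted p under 0.05 and DESeq2 called 16. An unadjusted p under 0.05 was reached by let-7a, with a difference of 0.39 ± 0.14 (SE, adjusted p = 0.201 by edgeR), and let-7c, with 0.47 ± 0.18 (SE, adjusted p = 0.213 by edgeR). DESeq2 called none of the 9, and the term for let-7a was -0.01 with spike-in scaling. By clone, the log2 change of let-7a lay between -0.46 and -0.33 in the 4 wild-type clones and between -0.13 and 0.09 in the 4 deletion clones. That of let-7e also did not overlap (-0.32 to -0.11 against -0.03 to 0.08), while those of the other members, let-7c among them, did. The share of all rows without such overlap was not computed. A smaller knockdown change in deletion clones is therefore not shown for any single member.

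Each ERH shRNA was also set against the summed controls, which both comparisons share. With shRNA 1, 3 members were lower, mir-98 (-0.57 ± 0.15), let-7g (-0.31 ± 0.10) and let-7i (-0.31 ± 0.09, SE, n = 8, adjusted p = 0.00693, 0.0223 and 0.0178 by edgeR). With shRNA 2 these members had -0.93 ± 0.19, -0.59 ± 0.15 and -0.43 ± 0.15 (SE, n = 8, adjusted p = 0.000994, 0.00392 and 0.0371 by edgeR). Of all rows, 31.3% were called with shRNA 1 (14.7% lower, 16.6% higher) and 26.9% with shRNA 2 (11.9% lower, 15.1% higher). The difference between the 2 vectors was not tested. With shRNA 1 the calls depended on the scaling. Spike-in scaling called let-7e and let-7f higher and gave let-7g and let-7i 0.18 each and mir-98 -0.09, and total miRNA scaling called let-7f higher. With shRNA 2 total miRNA scaling called mir-98 lower and spike-in scaling called no member. The call of let-7i with shRNA 1 was lost without clone 30, 52 or 57, and with shRNA 2 without any clone but 67. It was lost with either vector when the control shRNA 2 library of clone 30 was left out, and that of let-7g with shRNA 1 without clone 30, 52, 55 or 57. mir-98 was called with either vector in each fit that left out a clone.

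Between the 2 control shRNAs no member passed and none had an unadjusted p under 0.05 (edgeR). Of all 571 rows 0.0% were called, 48 had an unadjusted p under 0.05, and DESeq2 called no member and 1 row in all. The median log2 fold change of the members was 0.01.

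The deletion was read between clones, under control shRNAs, 4 against 4. No member was called by edgeR or DESeq2, and 2 had an unadjusted p under 0.05 by edgeR, let-7c and let-7e. Of all 536 rows tested, 25.9% were called by edgeR, 18.8% higher and 7.09% lower. An unadjusted p under 0.05 by edgeR was reached by 218 of the 536, and DESeq2 called 177. The members had a median log2 fold change of -0.10, and all rows of -0.03.

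let-7e, from the mir-99b, let-7e and mir-125a transcript, was the 1 member whose genotypes did not overlap. In wild-type clones 52, 55, 57 and 67 it stood at 2492, 2418.5, 2586 and 2445 CPM, and in deletion clones 30, 34 and 42 at 2126, 1837 and 1769 CPM, with clone 43 between clones 30 and 34. Every deletion clone was below every wild-type clone, a pattern that 10.3% of all rows showed in this direction and 19.0% in the other. The fitted log2 change was -0.37 with an SE of 0.17 (edgeR adjusted p = 0.115), and it was 0.05 with total miRNA scaling and 0.12 with spike-in scaling. With ERH shRNAs let-7e stood at 2290, 2017, 2078 and 2270 CPM in the same wild-type clones and at 2146, 1911, 1871 and 1861 CPM in the deletion clones, and the genotypes overlapped.

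The lower mean of let-7c in deletion clones, 1390 ± 454 against 2041 ± 404 CPM (SD, n = 4), came with an overlap through clone 30. The fitted log2 change was -0.54 with an SE of 0.23 (edgeR adjusted p = 0.1). Without clone 30 it was -0.72 (adjusted p = 0.0389 by edgeR), and without the control shRNA 2 library of that clone -0.67 (adjusted p = 0.0359 by edgeR), so that 1 member was called. The other members ranged from -0.34 (let-7a) to 0.19 (let-7i), and let-7i, whose deletion mean of 1092 ± 576 CPM (SD, n = 4) rests on 1929 CPM in clone 30, was -0.07 without that library. Without it let-7b went from -0.07 to -0.28 and let-7d from -0.07 to -0.22, neither of them called.

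Under ERH shRNAs no member differed between genotypes, none had an unadjusted p under 0.05, and DESeq2 called none. Of 569 rows, 0.0% were called by edgeR, 87 had an unadjusted p under 0.05, and DESeq2 called 8. The median log2 fold change of the members was 0.06, and of all rows 0.04.

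Clustered and solitary members were then set side by side. Under knockdown in all clones the median log2 fold change of the 7 clustered rows was -0.23 and of the 2 solitary rows -0.42. Wild-type clones alone gave -0.36 for the clustered and -0.48 for the solitary rows, and deletion clones alone -0.12 and -0.35. Under the deletion with control shRNAs it was -0.10 for the clustered and -0.02 for the solitary rows. The summed counts of the clustered rows were divided by the summed counts of let-7g and let-7i, a ratio that no scaling alters. The log2 ratio was 3.99 ± 0.29 (SD, n = 4) in wild-type clones with control shRNAs and 4.17 ± 0.21 with ERH shRNAs. In deletion clones it was 3.82 ± 0.36 with control shRNAs and 4.13 ± 0.29 with ERH shRNAs. It was higher under ERH shRNAs in 8 of 8 clones, by 0.25 ± 0.13 (SD) and by 0.09 to 0.46 in single clones. Between genotypes under control shRNAs it differed by -0.17, less than the spread between clones. These ratios are descriptions of sums that let-7a and let-7f dominate, and mir-98, a clustered row, fell more than either solitary row.

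Ratios of rows were compared in 14 exact permutation tests, 7 ratios under knockdown and under the deletion, and none passed after adjustment over the 14. The smallest p that these exact permutation tests can give is 0.00781 for knockdown and 0.0286 for the deletion. Over 14 tests both are too large for 1 ratio alone to pass. A ratio that did not pass is therefore not shown to be unchanged. Of the ratios, 6 pair rows with hairpins that share a transcript, and the other pairs the solitary let-7g and let-7i. The ratio of mir-98 to let-7f, which share the HUWE1 transcript through MIRLET7F2, was -6.55, -7.03, -6.44 and -6.20 on the log2 scale in wild-type clones 52, 55, 57 and 67 with control shRNAs. With ERH shRNAs it was -7.17, -7.33, -7.18 and -7.56. In deletion clones 30, 34, 42 and 43 it was -6.68, -6.88, -6.40 and -6.58 with control shRNAs and -7.00, -7.29, -6.72 and -7.49 with ERH shRNAs. The ratio was lower under ERH shRNAs in 8 of 8 clones, by a mean of -0.62 ± 0.37 (SD, n = 8, exact two-sided sign-flip permutation p = 0.00781, the smallest that 8 clones can give, adjusted p = 0.109). Reads of MIRLET7F1 on chromosome 9 share the let-7f row, so the ratio is not one of 2 hairpins of a single transcript. The same holds for let-7d to let-7f, as the let-7f row includes MIRLET7F2 on chromosome X. It also holds for let-7b to let-7a, as the let-7a row includes loci on chromosomes 9 and 11.

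The other ratios moved less. Under knockdown let-7d to let-7f changed by -0.28 ± 0.49 (SD, n = 8, exact permutation adjusted p = 0.438), let-7c to mir-99a by 0.25 ± 0.44 (0.481), let-7e to mir-99b by 0.17 ± 0.27 (0.438) and let-7e to mir-125a by 0.05 ± 0.34 (0.857). let-7g to let-7i changed by -0.06 ± 0.27 (SD, n = 8, exact permutation adjusted p = 0.790) and let-7b to let-7a by -0.02 ± 0.24 (0.857). Under the deletion the closest to the threshold was let-7e to mir-125a, which went from -2.36 ± 0.22 in wild-type to -2.0 ± 0.07 in deletion clones (SD, n = 4, exact permutation p = 0.0571, adjusted p = 0.4). The other 6 had adjusted p-values from 0.514 to 0.857 by the exact permutation test.

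**Figure D3:**
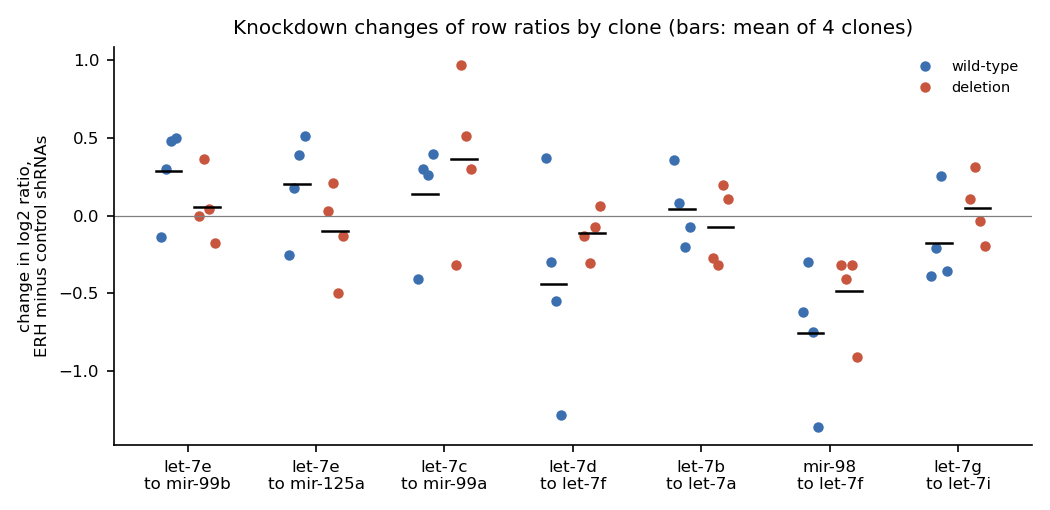
Change in the log2 ratio of 2 rows under ERH shRNAs (vertical axis, ERH minus control), with 1 point per clone for wild-type (blue) and deletion clones (red) and a bar at the mean of 4 clones. All 8 points of mir-98 to let-7f lie below 0, and the other 6 ratios have points on both sides of 0.

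The miRNAs that share a transcript with let-7 hairpins were read from the same fits. Under knockdown in all clones 2 of the 5 tested neighbours were lower on the TMM scale, against 16.5% of all rows, and none higher, mir-99a, the partner of let-7c (-0.58 ± 0.13, SE, adjusted p = 0.00134 by edgeR), and mir-125b (-0.34 ± 0.11, adjusted p = 0.023 by edgeR). mir-99b (-0.26), mir-100 (-0.26) and mir-125a (-0.14) did not pass, and mir-4763 had a count in 2 libraries and was not tested. Neither call was kept with total miRNA counts (mir-99a -0.31, mir-125b -0.06) or with spike-ins (-0.12 and 0.12), and that of mir-125b was lost without clone 55 or 57.

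Under the deletion 3 of 5 were lower on the TMM scale, against 7.09% of all rows, and none higher, both neighbours of let-7e among them, mir-99b (-0.63 ± 0.19, adjusted p = 0.0297 by edgeR) and mir-125a (-0.74 ± 0.17, adjusted p = 0.00922 by edgeR). The third was mir-125b (-0.70 ± 0.17, adjusted p = 0.0128 by edgeR), and mir-99a (-0.49) and mir-100 (-0.10) did not pass. None of the 3 was called with total miRNA counts, which gave mir-99b -0.20, mir-125a -0.32 and mir-125b -0.27, or with spike-ins, which gave -0.15, -0.22 and -0.20. Without clone 57 none of the 3 was called, and the call of mir-99b was kept without clone 42 or 55 but lost without any other clone. mir-125a stood at 12914 ± 2224 CPM in wild-type and at 7619.8 ± 807 CPM in deletion clones with control shRNAs (SD, n = 4). On the TMM scale let-7e, between its 2 neighbours, had the smallest fitted change of the 3. The difference between rows of this transcript did not pass the ratio tests above, which 1 ratio alone could not pass, so it stays undecided. The mir-125b row sums copies in the MIR100HG and MIR99AHG transcripts, so its change cannot be assigned to either.

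Outside the family 2 rows have a mature strand with the let-7 seed, shown for comparison with the seed in capitals (RefSeq, GRCh38.p14).
miR-4458: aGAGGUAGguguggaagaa
miR-4500: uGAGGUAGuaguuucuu

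mir-4500 had no count in the 32 libraries. mir-4458 stood at 36.1, 56.8, 93.1 and 51.6 CPM in wild-type clones 52, 55, 57 and 67 with control shRNAs and at 16.7, 26.0, 41.1 and 23.8 CPM with ERH shRNAs. In deletion clones 30, 34, 42 and 43 it stood at 19.4, 29.4, 34.6 and 27.7 CPM with control shRNAs and at 16.8, 14.9, 30.8 and 19.4 CPM with ERH shRNAs. It was lower with ERH shRNAs in every clone, as were 9.6% of all rows tested. With control shRNAs every deletion clone was below every wild-type clone, as in 10.3% of all rows tested. The fitted log2 change was -0.81 with an SE of 0.17 under knockdown (edgeR adjusted p = 0.000947) and -1.06 with an SE of 0.33 under the deletion (edgeR adjusted p = 0.0352). With total miRNA counts the values were -0.53, which was called, and -0.61, which was not, and with spike-ins -0.34 and -0.65, neither of them called. The knockdown call held in each fit that left out a clone, and the deletion call was lost without clone 30, 34, 43, 57 or 67. At these levels it is a small part of the RNA with this seed.

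The sign of most let-7 changes depended on the scaling. Under knockdown the median log2 fold change of all rows was 0.06 with TMM, 0.33 with total miRNA counts and 0.52 with the spike-in RNAs, and under the deletion it was -0.03, 0.39 and 0.42. With TMM 134 rows were higher and 110 lower under knockdown, with total miRNA counts 210 and 36, and with spike-ins 233 and 22. In wild-type clones the TMM split was 128 and 64, against 184 and 27 with total counts, 170 and 11 with spike-ins and 108 and 114 with DESeq2. In deletion clones it was 27 and 38, against 86 and 23 with total counts and 85 and 17 with spike-ins. Under the deletion it was 101 and 38, against 154 and 4, 134 and 0, and 108 and 69 with DESeq2. For shRNA 1 it was 109 and 96, against 197 and 41, and 242 and 21. For shRNA 2 it was 99 and 78, against 153 and 28, and 145 and 21.

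Relative to the median of all rows, the members lay below it under knockdown with each of the 3 scalings. This depended on the filter. With TMM and a mean of at least 100 counts that median was 0.0066, and let-7e (0.042) and let-7f (0.014) lay above it. With spike-ins let-7e was at 0.38, let-7f at 0.35, let-7a at 0.24, let-7b at 0.23 and let-7c at 0.13, all below 0.52. With total miRNA counts mir-98 was called (-0.46), and let-7a, let-7b, let-7e and let-7f were above 0.

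**Figure D4:**
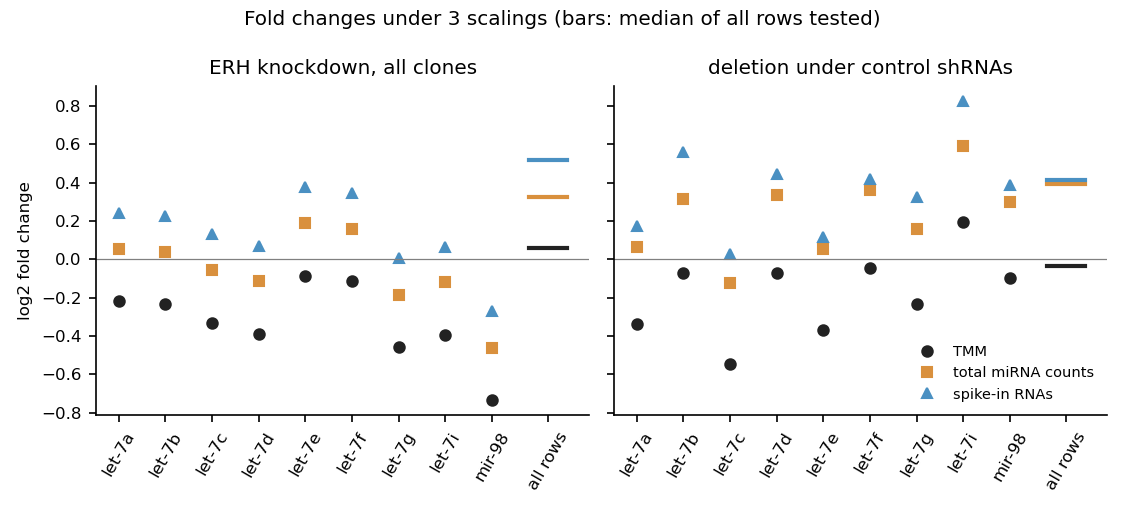
Fitted log2 fold changes of the 9 let-7 rows (vertical axis) under knockdown in all clones and under the deletion with control shRNAs, with TMM (black circles), total miRNA (orange squares) and spike-in scaling (blue triangles), and bars for the median of all rows. Under knockdown mir-98 is below 0 with each of the 3 scalings, while the other 8 rows are above 0 with spike-ins. Under the deletion let-7i is above 0 with each of the 3, and the other 8 rows change sign between TMM and spike-ins.

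Members did not move as 1 block across the 16 sums. These correlations are descriptions, since sums of a clone share its cells and all rows share the library's depth. Pearson's r of log2 CPM was highest for let-7a with let-7b (0.84), the solitary let-7g with let-7i (0.77) and the scarce let-7d with mir-98 (0.76), and lowest for let-7e with let-7f (0.13). Among 181 other rows with a mean of at least 100 CPM, neighbours left out, the most alike was mir-195 for let-7c (0.88), mir-532 for mir-98 (0.86) and mir-103a for let-7e (0.86). It was mir-3065 for let-7i (0.82), mir-660 for let-7f (0.81), mir-192 for let-7g (0.80), mir-191 for let-7a (0.79), mir-3200 for let-7b (0.76) and mir-589 for let-7d (0.71).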

How the data were processed

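The authors deposited a table of read counts per miRNA precursor, per the file headers, with 1 column per library and rows for 4 spike-in RNAs. SAMtools is named in the submitters' processing notes. The aligner, annotation, build and any use of molecular identifiers are not given in the sources used here, and without identifiers amplification copies are among the counts. Spike-ins joined 400 ng of total RNA, of which 100 ng entered a QIAseq miRNA library, per the labels' protocols.

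Libraries held 1318923 to 6222790 miRNA counts (median 2299476.5) and 9139 to 33090 spike-in counts. Chi-square per degree of freedom was at least 75.4 in the 48 pairs of libraries of 1 group, so none was treated as a copy. Groups came from the labels, and 0 columns lacked a sample.

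Counts were summed per clone and arm and tested with edgeR 4.0.16 (R 4.3.3): filterByExpr, TMM over miRNA rows, quasi-likelihood, Benjamini-Hochberg over all rows tested, adjusted p under 0.05. Knockdown and interaction had the clone as a block, and the deletion compared 4 with 4 clones. The labels give each clone all 4 vectors. A clone's control and ERH deviations from their group means correlated with r of 0.33 to 0.59 over 667 rows. Log2 CPM used a prior count of 2. Row ratios were tested by exact permutation (256 sign flips or 70 arrangements, smallest p 0.00781 and 0.0286). The edgeR code was tested on simulated data. It recovered 76% of rows changed by a log2 of 1 in the knockdown design and 44% in the deletion design. For a log2 of 2 it recovered 97% and 93%, and it called 1.71% and 1.49% of unchanged rows. Smaller changes, such as those of most members, were not simulated, so a member that was not called is not shown to be unchanged.

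Named rows were the 9 members, their transcript neighbours, rows with the let-7 seed and the row most like each member. Members, lists and tests were chosen with earlier results of these data known. Alternatives were total and spike-in scaling, DESeq2 1.42.0, a minimum mean of 100 counts or no filter, no clone block, single libraries, single shRNA numbers and leaving out each clone. Dropping the control shRNA 2 library of clone 30, and recomputing the neighbours and mir-4458 under other scalings and without single clones, were chosen after seeing the data.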

Additional observations from a re-analysis of the deposited data

Results flagged for a closer look

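Of 36 groups of 4 clones (9 members, 2 genotypes, 2 arms), 1 held a clone far from the others by Dixon's test, which chance gives in about 1 of 20 groups. It was let-7d in deletion clones with control shRNAs, where clone 30 stood at 99.3 CPM and clones 34, 42 and 43 between 75.8 and 76.9 CPM, so that the gap to the nearest clone was 0.955 of the group's range. The control shRNA 2 library of that clone also had the highest let-7d level of the 32 libraries, with 127 CPM. Without it the change of let-7d under knockdown in all clones was -0.31 with an adjusted p of 0.12 by edgeR, against -0.39 with it. The part of that library's high mir-142 and mir-223 in this value was not tested.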

How the results depend on the processing

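Depth limited let-7d and mir-98 most. The 684 recomputed member changes cover the 9 members in the 3 knockdown comparisons (all, wild-type and deletion clones) and the deletion under control shRNAs, let-7g, let-7i and mir-98 with each ERH shRNA, and let-7a and let-7c in the interaction. Of these, 600 kept their direction and 84 reversed, 51 of them with another scaling and none of the 84 with an adjusted p under 0.05. Outside them, let-7e with shRNA 1 went from -0.049 to 0.44 with spike-ins (adjusted p = 0.0316 by edgeR). The cause of the changes was not tested. Calls are by edgeR unless DESeq2 is named.

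The count of members called under knockdown in all clones was 5. It was 1 with total miRNA scaling, 0 with spike-ins, 3 without a filter, 3 with a mean of at least 100 counts, 2 with the shRNAs numbered 1, 2 with those numbered 2, and 3 to 6 without 1 clone. In wild-type clones it was 4, against 0 with total miRNA and 0 with spike-in scaling, 1 without a filter, 7 with shRNAs numbered 1, 1 with those numbered 2, 7 with DESeq2 and 1 to 3 without 1 clone. In deletion clones it was 0, against 2 without a filter, 1 with a mean of at least 100 counts, 3 with DESeq2, 2 with each library as its own sample and 0 to 3 without 1 clone. Under the deletion it was 0, against 1 with shRNAs numbered 1, 3 with each library as its own sample and 0 to 1 without 1 clone. For shRNA 1 it was 3, against 1 with total miRNA scaling (let-7f, higher), 2 with spike-ins (let-7e and let-7f, higher), 1 without a filter, 1 with a mean of at least 100 counts, 5 with DESeq2 and 1 to 4 without 1 clone. For shRNA 2 it was 3, against 1 with total miRNA scaling, 0 with spike-ins and 5 with DESeq2. Without the control shRNA 2 library of clone 30 it was 2 in all clones, 1 in deletion clones and 1 under the deletion.

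Fits with no replicate block, which ignore that control and ERH sums pair by clone, called 1 member in all clones, 0 in wild-type clones, 0 with shRNA 1 and 1 with shRNA 2. The count of all rows fell from 244 to 37 in all clones, from 192 to 94 in wild-type and from 65 to 13 in deletion clones, from 205 to 40 with shRNA 1 and from 177 to 26 with shRNA 2. let-7e in deletion clones was then -0.0073 (0.0041 with the block).

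With total miRNA scaling, the log2 fold changes that reversed were, under knockdown in all clones, let-7a 0.056, let-7b 0.039, let-7e 0.19 and let-7f 0.16. In wild-type clones they were let-7b 0.015, let-7e 0.19 and let-7f 0.19, and in deletion clones let-7a 0.14, let-7b 0.062, let-7c 0.067, let-7d 0.015 and let-7f 0.13. Under the deletion they were let-7a 0.066, let-7b 0.32, let-7d 0.34, let-7e 0.054, let-7f 0.36, let-7g 0.16 and mir-98 0.30.

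With spike-in scaling they were, in all clones, let-7a 0.24, let-7b 0.23, let-7c 0.13, let-7d 0.072, let-7e 0.38, let-7f 0.35, let-7g 0.0058 and let-7i 0.067. In wild-type clones they were let-7a 0.25, let-7b 0.29, let-7c 0.094, let-7d 0.026, let-7e 0.46, let-7f 0.47, let-7g 0.049 and let-7i 0.22, and in deletion clones let-7a 0.24, let-7b 0.16, let-7c 0.17, let-7d 0.12 and let-7f 0.23. Under the deletion they were let-7a 0.18, let-7b 0.56, let-7c 0.026, let-7d 0.45, let-7e 0.12, let-7f 0.42, let-7g 0.33 and mir-98 0.39. With shRNA 1 let-7g was 0.18 and let-7i 0.18, and the interaction of let-7a was -0.010.

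With a mean of at least 100 counts, let-7e was 0.042 and let-7f 0.014 under knockdown in all clones, and under the deletion let-7b was 0.085, let-7d 0.086, let-7f 0.12 and mir-98 0.059. With shRNAs numbered 1, let-7e was 0.0031 and let-7f 0.017 in all clones, let-7b 0.11 and let-7d 0.099 in deletion clones, and let-7f 0.044 and mir-98 0.011 under the deletion. The ratio of let-7c to mir-99a was then 0.070 under the deletion and that of let-7b to let-7a 0.078 under knockdown. With shRNAs numbered 2, let-7e was -0.097 in deletion clones, and let-7b 0.096 and let-7d 0.14 under the deletion. The ratio of let-7e to mir-125a was then -0.19 under knockdown and that of let-7d to let-7f 0.25 under the deletion. let-7e in deletion clones was -0.014 without a filter, -0.011 with DESeq2 and -0.018 without the control shRNA 2 library of clone 30. Without that library let-7i was -0.067 under the deletion, and the ratio of let-7b to let-7a was 0.050 under knockdown.

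Leaving out 1 clone reversed let-7f in wild-type clones (-0.31 to 0.043), let-7e in deletion clones (-0.031 to 0.029) and, under the deletion, let-7b (-0.39 to 0.31), let-7d (-0.19 to 0.10), let-7f (-0.13 to 0.085), let-7i (-0.16 to 0.38) and mir-98 (-0.17 to 0.067). It also reversed the knockdown ratios of let-7e to mir-125a (-0.013 to 0.13) and let-7b to let-7a (-0.071 to 0.026), and the deletion ratios of let-7c to mir-99a (-0.37 to 0.049), let-7d to let-7f (-0.30 to 0.14) and mir-98 to let-7f (-0.24 to 0.038).

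Counts of all rows called that moved by over 1.5 times, beside those above, were as follows. In all clones 244 became 148 with a mean of at least 100 counts, 117 with shRNAs numbered 2 and 159 without clone 55. In wild-type clones 192 became 124 with that mean, 20 with shRNAs numbered 2 and 112 at the lowest without 1 clone. In deletion clones 65 became 109 with total miRNA scaling, 102 with spike-ins, 104 with each library as its own sample, 19 with shRNAs numbered 2 and 30 to 119 without 1 clone. Under the deletion 139 became 76 with that mean, 223 with each library as its own sample, 35 with shRNAs numbered 2 and 83 without clone 34. Under the deletion with ERH shRNAs 0 became 8 with DESeq2, 1 without a filter, 55 with each library as its own sample and at most 1 without 1 clone. The interaction's 0 became 29 with total miRNA scaling, 16 with DESeq2, 19 without a filter, 29 with that mean, 52 with each library as its own sample, 30 with shRNAs numbered 1 and up to 35 without 1 clone. With shRNA 1, 205 became 129 at the lowest without 1 clone, and with shRNA 2, 177 became 110 with that mean. Between the control shRNAs 0 became 1 with DESeq2 and 1 with that mean.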
